A study of Neotoma stephensi and Rattus norvegicus with 6 samples.

Results

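The 49 genes described here encode the facilitative glucose transporters, the enzymes of glycolysis, the lactate dehydrogenases, the pyruvate dehydrogenase complex with its kinases, pyruvate carboxylase and the enzymes of the citric acid cycle. They were taken by symbol from a list of these pathways, and each of the 49 matched 1 gene among the 15481 mouse genes with counts. RNA-Seq was carried out on the forestomach wall (fornix ventricularis) of 3 female Stephens' woodrats (Neotoma stephensi) and 3 female Sprague Dawley lab rats (Rattus norvegicus). The woodrats were caught in the wild, ate juniper foliage and were dissected the day after reaching the laboratory, whereas the lab rats came from a breeder and had been kept for months on rat chow. The labels call every animal a virgin, while the study's methods give this as known for lab rats only, and no ages are given in the sources used here. No animal was treated, and species, diet, origin and time in captivity cannot be told apart in this design. Each library came from 1 animal. The comparison asks which transcripts differ between a stomach chamber that houses dense fermenting microbes and one that does not.

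Glycolysis splits glucose into pyruvate in the cytosol. Pyruvate is then either reduced to lactate by lactate dehydrogenase, whose A subunit is known from glycolytic tissue and whose B subunit from oxidative tissue, or oxidised by pyruvate dehydrogenase in mitochondria, where the citric acid cycle completes its breakdown. Pyruvate dehydrogenase kinases switch the complex off by phosphorylation. In ruminants the wall of the forestomach is known to take up short-chain fatty acids from fermentation and to oxidise them, so that carbon other than glucose enters the same cycle.

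Between 5439642 and 7932637 reads were counted per animal, and 3 reads corresponded to between 0.355 and 0.586 CPM, the unit in which each library is scaled to a common total. TMM factors, which correct for library composition, were applied. A value after ± beside a log2 fold change is its standard error, and FDR values are from edgeR unless another tool is named. As both species were aligned to mouse transcripts, a species difference of a gene also holds any difference in how well its reads aligned. Squamous keratins were abundant in every animal (suprabasal markers summed to between 25102 and 100307 CPM), and the glandular stomach markers summed to no more than 13.5 CPM. The libraries differed in muscle. The 12 smooth muscle markers summed to 163550, 79971 and 54366 CPM in woodrats 1, 2 and 3, and to 16726, 27332 and 31684 CPM in lab rats 1, 2 and 3. In the study's histology, with a limited sample size, muscularis propria and total muscle took up more of the woodrat wall. Muscularis mucosae took up more of the lab rat wall. In bulk RNA alone, fewer cells of a type and less RNA per cell cannot be told apart.

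Of the 49 genes, 6 were higher in woodrats (Slc2a10, Slc2a12, Pdk2, Idh1, Idh2 and Dlst) and 6 were lower (Slc2a9, Hk1, Hk2, Ldha, Pdk1 and Mdh1) at a false discovery rate (FDR) below 0.01 in edgeR's quasi-likelihood test. These are 12.2% in each direction, against 10.3% of the 12603 tested genes called higher and 9.71% called lower, so the share was near the background. In either direction 12 of the 49 were called, against 20% of all tested genes. At an FDR below 0.05 the counts were 11 higher and 10 lower, against 21% and 18.9% of all tested genes. All 49 passed the filter of 1 CPM in 3 animals. Slc2a9, Slc2a10, Slc2a12 and Hk2 fell below 1 CPM in some animals and were therefore tested through the species in which they were higher. Among the other 45 genes, 4 were called higher and 4 lower. The median log2 fold change (woodrat over lab rat) was -0.30 over the 49 genes and 0.03 over all tested genes. All 3 woodrats lay above all 3 lab rats for 15 of the 49 genes, and below them for 18, against 28.8% and 27.4% of all tested genes. The species did not overlap for 33 of the 49, against 56.2% of all tested genes.

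**Figure D1:**
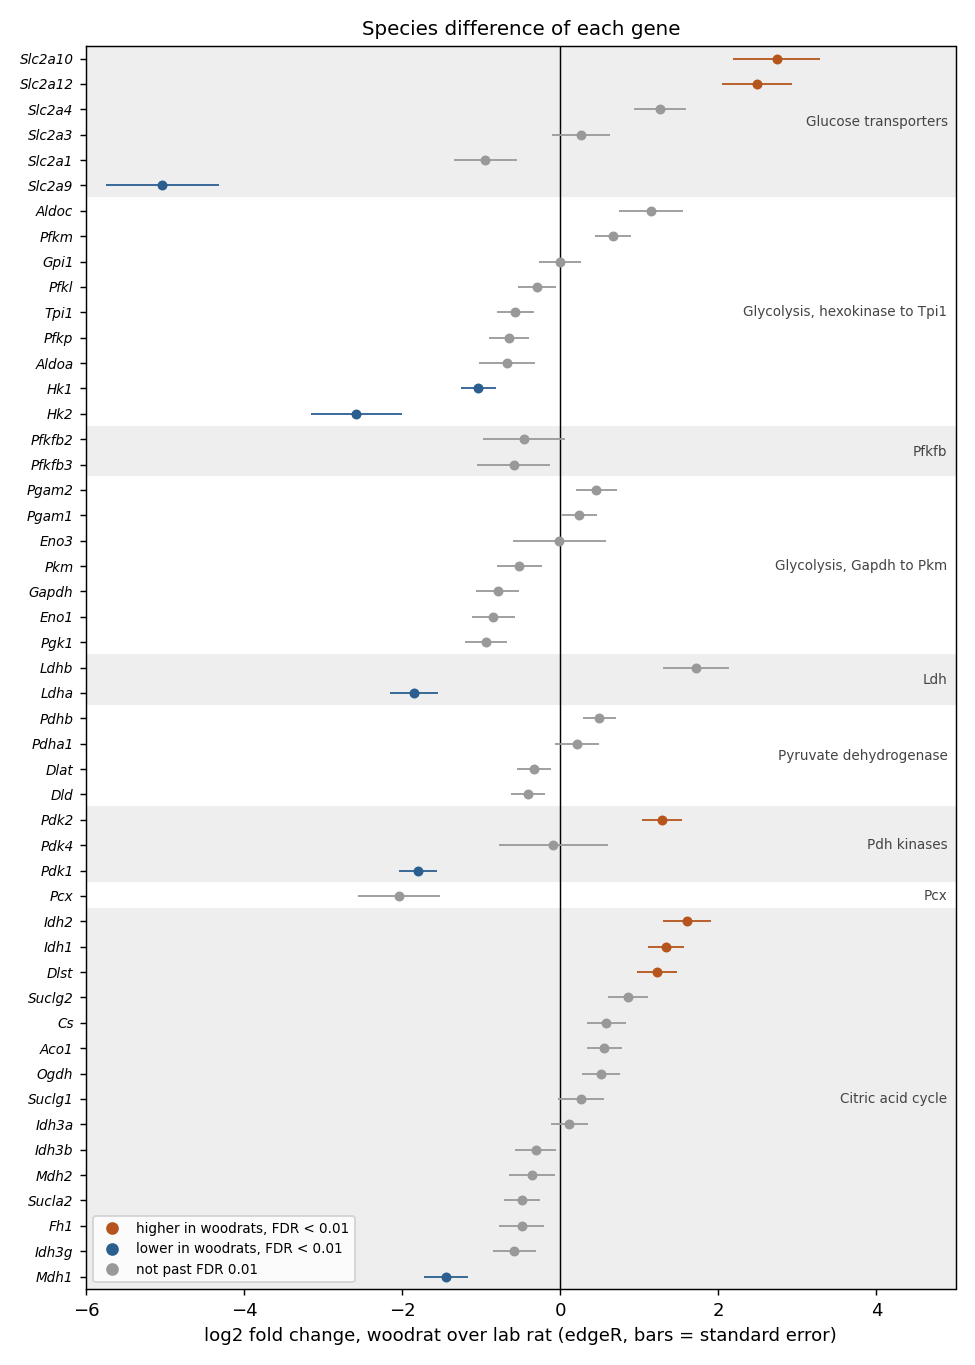
log2 fold change of each of the 49 genes (x axis, woodrat over lab rat, from edgeR, with its standard error as a bar), grouped by role and sorted within each group. Orange points mark the 6 genes called higher in woodrats, blue points the 6 called lower and grey points the genes not past an FDR of 0.01. Paired genes such as Ldha and Ldhb or Pdk1 and Pdk2 lie on opposite sides of 0.

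The glucose transporters were split. Slc2a10 and Slc2a12, which encode the facilitative carriers GLUT10 and GLUT12, were higher in woodrats. Slc2a10 had 3.91, 4.44 and 4.38 CPM in woodrats 1, 2 and 3 and 0.496, 1.16 and 0.193 CPM in lab rats 1, 2 and 3 (log2 fold change 2.74 ± 0.55, FDR = 0.00588). Slc2a12 had 7.23, 5.83 and 4.38 CPM in woodrats against 1.24, 1.16 and 0.578 CPM in lab rats (log2 fold change 2.49 ± 0.45, FDR = 0.00384). The species did not overlap for either gene, but these are low counts, with at most 10 reads in any lab rat library. Both genes passed the filter through the woodrats, so that their FDR does not support a difference by itself. Slc2a9 encodes a carrier best known for urate transport. It had 1, 2 and 0 reads in woodrats and 50, 39 and 18 reads in lab rats, or 3 reads against 107. Summed over the animals, its abundance was 38.4 times higher in lab rats, with an exact 95% interval from 12.8 to 189 that covers counting error only (edgeR FDR = 0.00158). Slc2a9 passed the filter only through the lab rats, so that its FDR does not support a difference by itself.

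The better known carriers did not pass the threshold. Slc2a4, which encodes the insulin-responsive carrier GLUT4 of muscle and fat, had 139, 101.3 and 64.7 CPM in woodrats against 30.7, 49.3 and 47.0 CPM in lab rats, so that the species did not overlap (log2 fold change 1.26, FDR = 0.0179). Without woodrat 1, the animal with the most smooth muscle transcript, its log2 fold change was 0.97 (FDR = 0.0447), and of the fits without 1 animal only that without woodrat 3 called it (FDR = 0.00551). DESeq2 called it with all animals (FDR = 0.00556). Slc2a1, the basal carrier GLUT1, had 10.7, 27.9 and 33.0 CPM in woodrats against 55.1, 48.0 and 36.2 CPM in lab rats (log2 fold change -0.95, FDR = 0.0883). Slc2a3, the carrier GLUT3, overlapped between the species at between 3.66 and 7.49 CPM.

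Of the 16 glycolytic enzymes among the 49 genes, both hexokinases were lower in woodrats and none of the other 14 passed the threshold. Over all tested genes 9.71% were called lower and 10.3% higher, so the share of the 16 called lower was near the background. Hexokinase traps glucose in the cell as glucose 6-phosphate. Hk1, the widespread hexokinase, had 154, 146 and 149 CPM in woodrats against 317, 311 and 295 CPM in lab rats. Its log2 fold change of -1.04 ± 0.22 (FDR = 0.00781) was far larger than the spread within either species. Hk2, the inducible isoform of muscle and fat, had 1.37, 0.694 and 2.49 CPM in woodrats against 12.2, 11.4 and 4.24 CPM in lab rats (log2 fold change -2.58 ± 0.58, FDR = 0.00915). Lab rat 3 was closest to the woodrats, with 22 reads. Hk2 passed the filter through the lab rats, so that its FDR does not support a difference by itself.

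Of these 16 enzymes, from hexokinase to pyruvate kinase, 12 had a negative log2 fold change, with a median of -0.54, while 49% of all tested genes were negative. Their reads summed to 2587, 2237 and 2284 CPM in woodrats against 3059, 3413 and 3976 CPM in lab rats. For 7 of the 16 every woodrat lay below every lab rat, against 27.4% of all tested genes. These were both hexokinases, Pfkp, triosephosphate isomerase (Tpi1), glyceraldehyde-3-phosphate dehydrogenase (Gapdh), phosphoglycerate kinase (Pgk1) and enolase 1 (Eno1). Tpi1 had 157, 145 and 166 CPM in woodrats against 199, 235 and 259.8 CPM in lab rats (log2 fold change -0.57, FDR = 0.0822). Gapdh had 470, 409 and 351 CPM in woodrats against 592, 736 and 802 CPM in lab rats (log2 fold change -0.79, FDR = 0.0491). Eno1 makes phosphoenolpyruvate, the substrate of pyruvate kinase. It had 294, 243 and 302 CPM in woodrats against 430, 457 and 628 CPM in lab rats (log2 fold change -0.85, FDR = 0.0367). Pgk1 was at 109, 121 and 170 CPM in woodrats against 233, 241 and 294 CPM in lab rats (log2 fold change -0.94, FDR = 0.0227). Pyruvate kinase (Pkm), the last step, had 439, 280 and 310 CPM in woodrats against 426, 524 and 525 CPM in lab rats, and woodrat 1 overlapped with the lab rats (log2 fold change -0.52, FDR = 0.173). Glucose-6-phosphate isomerase (Gpi1) had nearly the same mean in both species, 306 ± 47.4 CPM in woodrats against 307 ± 50.1 CPM in lab rats (SD, n = 3).

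Enzymes with tissue-specific isoforms gave mixed values. Phosphofructokinase, the main control point of glycolysis, has a muscle (Pfkm), a liver (Pfkl) and a platelet (Pfkp) type. Pfkm had 110, 95.9 and 77.1 CPM in woodrats against 58.0, 61.5 and 58.7 CPM in lab rats (log2 fold change 0.67, FDR = 0.0452), whereas Pfkp had 150, 109 and 96.1 CPM in woodrats against 164, 185 and 207 CPM in lab rats (log2 fold change -0.65, FDR = 0.0741). Pfkl overlapped between the species (log2 fold change -0.30, FDR = 0.345). Aldoc, the brain-type aldolase, had 19.1, 18.3 and 9.48 CPM in woodrats against 4.34, 8.93 and 7.897 CPM in lab rats (log2 fold change 1.15, FDR = 0.0498). The muscle enolase Eno3 was spread more widely among woodrats than any difference between the species, with 100, 26.5 and 19.0 CPM in woodrats against 33.8, 46.8 and 65.9 CPM in lab rats (FDR = 0.988). The phosphoglycerate mutases Pgam1 and Pgam2, and the kinases Pfkfb2 and Pfkfb3 that make the phosphofructokinase activator fructose 2,6-bisphosphate, overlapped between the species, with FDR values from 0.194 to 0.5.

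Aldolase A (Aldoa) cannot be read from its own count. Its near-identical mouse copy Aldoart2 held between 4109 and 5554 reads per library, and Aldoa only between 13.4% and 19.8% of the reads of the pair. With the reads summed, the pair had 4803, 5076 and 5103 reads in woodrats and 6008, 4808 and 6925 reads in lab rats (log2 fold change -0.36, FDR = 0.437), against -0.68 for Aldoa alone (FDR = 0.162). The same sums were made for Gapdh, Ldha and Pgk1, and moved their log2 fold changes to -0.86, -1.88 and -0.94. With these copies added, the glycolytic sum was 3399, 2831 and 2812 CPM in woodrats against 3699, 4131 and 5089 CPM in lab rats, and the species still did not overlap. Eno1 also has a near-identical mouse copy, and its value is uncertain for that reason.

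The lactate dehydrogenase genes lay on opposite sides. Ldha, the A subunit, had 112, 87.3 and 146 CPM in woodrats against 325, 437 and 485 CPM in lab rats. The means were 115 ± 29.5 CPM in woodrats against 416 ± 82.3 CPM in lab rats (SD, n = 3), and Ldha was called lower (log2 fold change -1.85 ± 0.30, FDR = 0.00262). Ldhb, the B subunit, ran the other way, with 467, 236 and 169 CPM in woodrats against 75.9, 68.6 and 121 CPM in lab rats. Every woodrat was above every lab rat, but the woodrats differed widely among themselves, and the log2 fold change of 1.71 ± 0.42 (FDR = 0.0132) missed the threshold. The woodrats stood in the same order for Ldhb as for the smooth muscle markers. Without woodrat 1 its log2 fold change was 1.19 (FDR = 0.0237), and without woodrat 3 it was 1.99 (FDR = 0.00484). DESeq2 called it (FDR = 0.000925). The part of muscle content in these values was not tested.

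**Figure D2:**
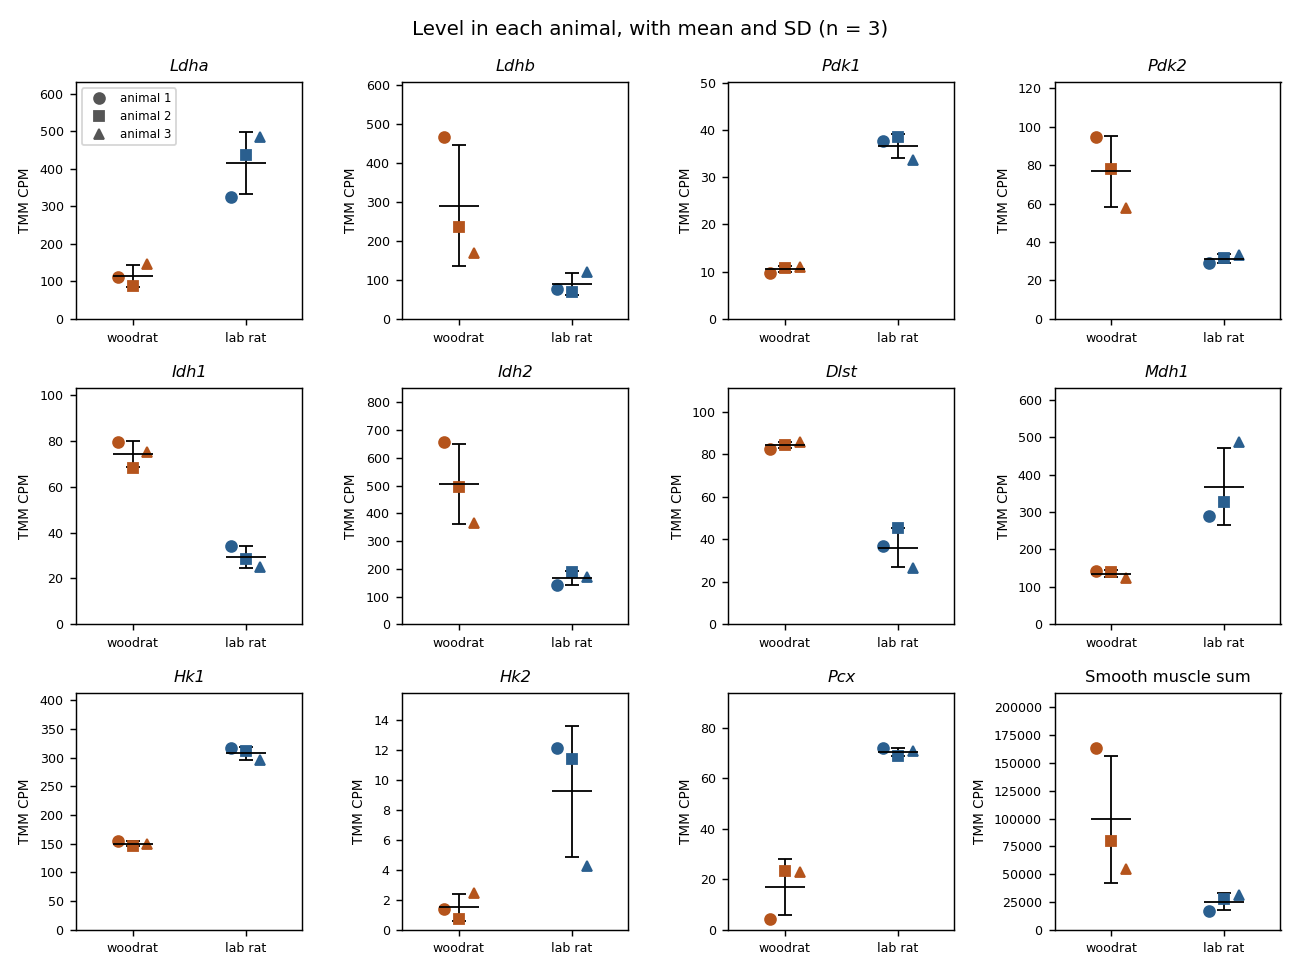
TMM-normalised CPM (y axis, starting at 0) of 11 genes and of the summed smooth muscle markers in each animal, with woodrats in orange and lab rats in blue, a symbol for each animal number, and the mean and SD over 3 animals as a line and bars. The species do not overlap in any panel. Woodrat 1 is the highest woodrat for Ldhb, Pdk2, Idh1, Idh2, Mdh1, Hk1 and the smooth muscle sum. It is the lowest woodrat for Pdk1, Dlst and Pcx.

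The kinases of pyruvate dehydrogenase were also split. Pdk1, a kinase known as a target of hypoxia-inducible factor, had 9.77, 10.7 and 11.02 CPM in woodrats against 37.7, 38.5 and 33.7 CPM in lab rats. The animals of each species lay close together (log2 fold change -1.80 ± 0.24, FDR = 0.00134). Pdk2, the widespread kinase, had 94.7, 77.9 and 57.8 CPM in woodrats against 29.2, 31.8 and 33.3 CPM in lab rats (log2 fold change 1.29 ± 0.25, FDR = 0.00540). Pdk4, the kinase induced by fasting, overlapped, with 3.91, 14.4 and 38.9 CPM in woodrats against 23.7, 26.5 and 10.98 CPM in lab rats (log2 fold change -0.09, FDR = 0.931).

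None of the 4 subunits of the complex among the 49 genes passed the threshold. They are the E1 pair Pdha1 and Pdhb, the E2 core Dlat and the E3 subunit Dld, which is shared with the oxoglutarate complex. Their log2 fold changes lay between -0.41 for Dld and 0.49 for Pdhb, with FDR values from 0.0937 to 0.573. Pdhb had 85.9, 97.2 and 91.6 CPM in woodrats against 68.1, 57.9 and 69.0 CPM in lab rats. Dlat had 36.3, 32.1 and 32.9 CPM in woodrats against 45.5, 42.0 and 39.5 CPM in lab rats. Dld had 69.7, 67.0 and 70.6 CPM in woodrats against 102, 96.6 and 76.5 CPM in lab rats. Every woodrat was thus above every lab rat for Pdhb and below for Dlat and Dld, while Pdha1 overlapped. Summed over the 4 subunits, woodrats had 276, 283 and 268 CPM and lab rats 298, 279 and 231 CPM, which overlapped.

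Pyruvate carboxylase (Pcx), which refills the cycle by making oxaloacetate from pyruvate, was at 4.30, 23.5 and 23.1 CPM in woodrats and at 72.1, 68.8 and 70.7 CPM in lab rats. The lab rats were nearly alike, and woodrat 1 lay far below the other woodrats. The log2 fold change was -2.04 ± 0.52 (FDR = 0.0156), and without woodrat 1 it was -1.60 with an FDR of 0.00317. Pcx was called by DESeq2 as well (FDR = 0.000432). Woodrat 1 also had the lowest suprabasal keratinocyte sum, 25102 CPM against 40088 and 67583 CPM in woodrats 2 and 3 and between 78627 and 100307 CPM in lab rats. The markers in this sum went both ways, with Krt4 called higher in woodrats and Ivl called lower, and the basal keratinocyte sum overlapped between the species. The part of epithelial content in the Pcx values was not tested.

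In the citric acid cycle, 3 of 15 genes were higher in woodrats, 1 was lower and 11 did not pass the threshold, with a median log2 fold change of 0.26. Over all tested genes 10.3% were called higher and 9.71% lower. The 3 higher genes encode the isocitrate dehydrogenases that use NADP and a subunit of the oxoglutarate complex. Idh2, the mitochondrial enzyme that yields NADPH, had 656, 497 and 366 CPM in woodrats against 141, 189 and 171 CPM in lab rats (log2 fold change 1.60 ± 0.30, FDR = 0.00463). Idh1, its counterpart in cytosol and peroxisomes, had 79.3, 68.3 and 75.0 CPM in woodrats against 34.3, 28.6 and 24.8 CPM in lab rats (log2 fold change 1.34 ± 0.23, FDR = 0.00319). The woodrats lay close together for Idh1, whereas for Idh2 they stood in the order of their smooth muscle markers. Without woodrat 1 the log2 fold change of Idh2 was 1.37 (FDR = 0.00866). The NAD-dependent isocitrate dehydrogenase, the form that acts in the cycle proper, had no subunit past the threshold. Its subunits Idh3a, Idh3b and Idh3g had log2 fold changes of 0.11, -0.31 and -0.58 (FDR = 0.731, 0.360 and 0.118). Of these only Idh3g did not overlap, with 105, 96.7 and 85.4 CPM in woodrats against 117, 119.9 and 193 CPM in lab rats.

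Dlst, the E2 core of the oxoglutarate dehydrogenase complex, had 82.6, 84.4 and 85.5 CPM in woodrats against 36.6, 45.2 and 26.6 CPM in lab rats (log2 fold change 1.22 ± 0.25, FDR = 0.00676). The E1 subunit Ogdh was also higher in each woodrat, at 284, 241 and 237 CPM against 199, 186 and 151 CPM, by a smaller amount that was not called (log2 fold change 0.51, FDR = 0.122). Succinate-CoA ligase pairs the shared subunit Suclg1 with either a GDP-forming (Suclg2) or an ADP-forming (Sucla2) partner. Suclg2 had 138, 122 and 92.4 CPM in woodrats against 67.6, 73.3 and 53.2 CPM in lab rats (log2 fold change 0.86, FDR = 0.0267). Sucla2 was on the other side, with 79.9, 69.0 and 92.9 CPM in woodrats against 111, 103 and 123 CPM in lab rats (log2 fold change -0.48, FDR = 0.122). Suclg1 overlapped between the species (FDR = 0.495).

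Mdh1, the cytosolic malate dehydrogenase of the malate-aspartate shuttle, was the cycle-related gene that was lower in woodrats. It had 142, 139 and 125 CPM in woodrats against 290, 327 and 486 CPM in lab rats (log2 fold change -1.44 ± 0.28, FDR = 0.00509). The mitochondrial enzyme Mdh2 had 408, 407 and 380 CPM in woodrats against 414, 431 and 685 CPM in lab rats, and its difference was not called (log2 fold change -0.36, FDR = 0.356). Citrate synthase (Cs), the entry step of the cycle, was at 161, 182 and 237 CPM in woodrats against 140, 137 and 109 CPM in lab rats (log2 fold change 0.58, FDR = 0.0964). The cytosolic aconitase Aco1, which doubles as an iron sensor, had 72.1, 86.3 and 82.0 CPM in woodrats against 54.2, 61.5 and 47.4 CPM in lab rats and was not called (log2 fold change 0.56, FDR = 0.0738). Fumarase (Fh1) overlapped (log2 fold change -0.49, FDR = 0.200).

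The balance between related genes was then compared within each animal, as the log2 ratio of their reads, because such a ratio does not depend on how a library is scaled. The ratio is not corrected for transcript length, so that only its difference between the species is read here. Of 12 pairs compared, 6 did not overlap between the species. Each of these gave p = 0.1 in a two-sided exact permutation test, the smallest p that 3 animals against 3 allow, and 0.2 after Benjamini-Hochberg adjustment over the 12 pairs.

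Of the 12 ratios Ldha to Ldhb differed most, at -2.06, -1.43 and -0.21 in woodrats and 2.10, 2.67 and 2.00 in lab rats. Woodrats thus had more Ldhb than Ldha reads in every animal and lab rats the reverse, with an 11.2-fold difference between the mean ratios. The Slc2a4 to Slc2a1 ratio was 4.96-fold higher in woodrats, a difference of 2.31 on the log2 scale that was 1.56 without woodrat 1 and 2.91 without woodrat 3. The Pfkm to Pfkl ratio was 1.91-fold higher. The Aldoa to Aldoc ratio was 3.35-fold lower in woodrats, although this one rests on the uncertain Aldoa count, and the Sucla2 to Suclg2 ratio was 2.53-fold lower. The tightest was the Mdh1 to Mdh2 ratio, at -1.52, -1.55 and -1.61 in woodrats and -0.51, -0.40 and -0.50 in lab rats, or 2.13-fold lower in woodrats. The other 6 pairs overlapped. Among them the Idh1 to Idh2 ratio differed by -0.22 on the log2 scale (exact permutation p = 0.5, adjusted 0.545), and the Hk1 to Hk2 ratio by 1.54 (exact permutation p = 0.2, adjusted 0.24).

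**Figure D3:**
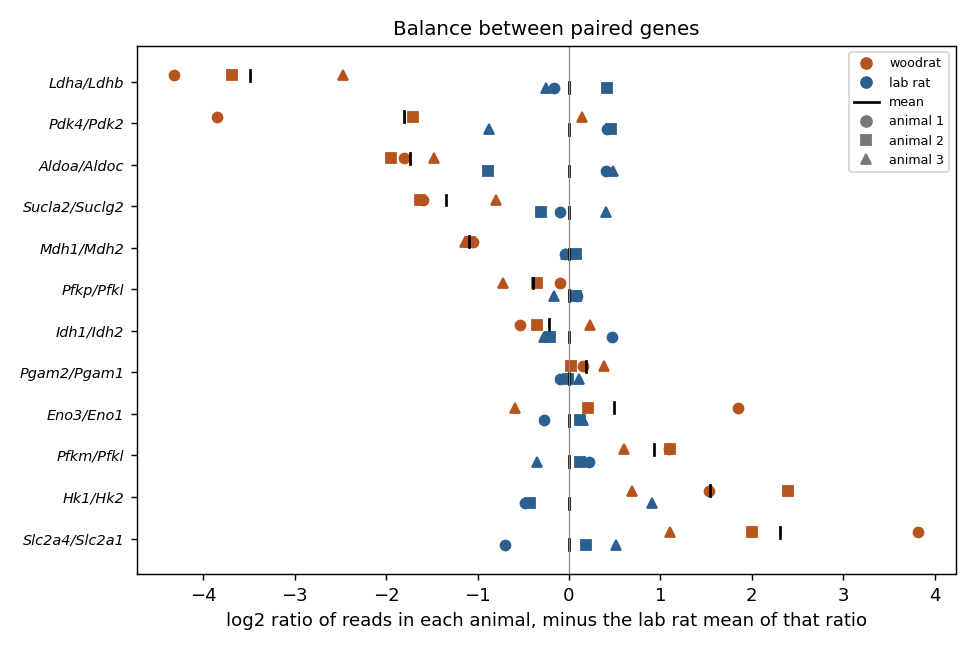
log2 ratio of the reads of 12 gene pairs in each animal (x axis, after subtracting the lab rat mean of that ratio, so that lab rats centre on 0), with woodrats in orange, lab rats in blue, the animal number as symbol and the mean as a black line. The Ldha to Ldhb ratio lies farthest from the lab rats, and the 3 woodrats lie closest together for Mdh1 to Mdh2.

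The order of the woodrats was set beside their muscle content for the whole list. The smooth muscle sum was highest in woodrat 1 and lowest in woodrat 3, and 19 of the 49 genes (38.8%) had the same order, against 25.4% of all tested genes. Among the genes called higher, Slc2a12, Pdk2 and Idh2 did so, while Dlst ran in the opposite order. Among those called lower, Mdh1 had the same order and Pdk1 the opposite one. Markers of striated muscle summed to between 281 and 546 CPM in woodrats and between 111 and 154 CPM in lab rats, but were split. Creatine kinase (Ckm) and Actn3 had the highest mean CPM in both species. Ckm and Tnni2 were called higher in woodrats (log2 fold change 3.11 and 3.13, FDR = 0.00141 and 0.00234). Pvalb was called lower (log2 fold change -5.63, FDR = 0.00244). It had 0, 0 and 10 reads in woodrats and passed the filter through the lab rats, so that its FDR does not support a difference by itself. The fast myosin heavy chains Myh1, Myh2 and Myh4 did not exceed 2.98 CPM in any animal. They and Tnnt3 lay below the lab rats in every woodrat. The summed markers of adipocytes, the other main site of Slc2a4 and Hk2, were at 14.2 to 22.7 CPM in woodrats against 25.3 to 73.6 CPM in lab rats. Nearly all of this sum came from Fabp4, which was lower in every woodrat but not called (log2 fold change -1.49, FDR = 0.0181). Plin1 and Cidec overlapped between the species, and Adipoq was not analysed here.

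The remaining marker lists gave the following sums. Erythroid markers, led by Hba-a1, had 12.0 to 36.1 CPM in woodrats against 253 to 497 CPM in lab rats. All 3 tested genes were called lower in woodrats, against 9.71% of all tested genes. Among them Alas2 stayed below 1 CPM in every woodrat and passed the filter through the lab rats. The suprabasal keratinocyte sum did not overlap either, but its markers were split. Ivl was called lower in woodrats (log2 fold change -4.96, FDR = 0.000172), Krt1 and Krt10 lay below in every woodrat without being called, and Krt4 was called higher (log2 fold change 3.34, FDR = 0.00626). Basal keratinocyte (Krt15), leukocyte (Cd68), neuronal and glial (Tubb3), endothelial (Pecam1) and fibroblast (Col3a1) markers overlapped between the species as sums. Within these lists Ptprc and Itgam of leukocytes (log2 fold change -3.46 and -3.65, FDR = 0.00580 and 0.00513) and Dcn of fibroblasts (-1.41, FDR = 0.00892) were called lower in woodrats, and Dst of basal keratinocytes (1.38, FDR = 0.00437) was called higher. Ptprc and Itgam stayed below 1 CPM in every woodrat and passed the filter through the lab rats. The part of these cell types in the results was not tested.

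Genes of the connected pathways were counted from lists of 94 neighbouring and 34 regulatory genes, of which 77 and 32 were tested. Of the neighbouring genes, 12 were higher and 11 lower in woodrats. Of the regulators, 3 were higher and 1 was lower. Over all tested genes these shares were 10.3% and 9.71%, and the regulators did not exceed either. The lists leaned in different directions, from glycogen genes with a median log2 fold change of 1.04 to lactate and pyruvate handling with -1.34.

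**Figure D4:**
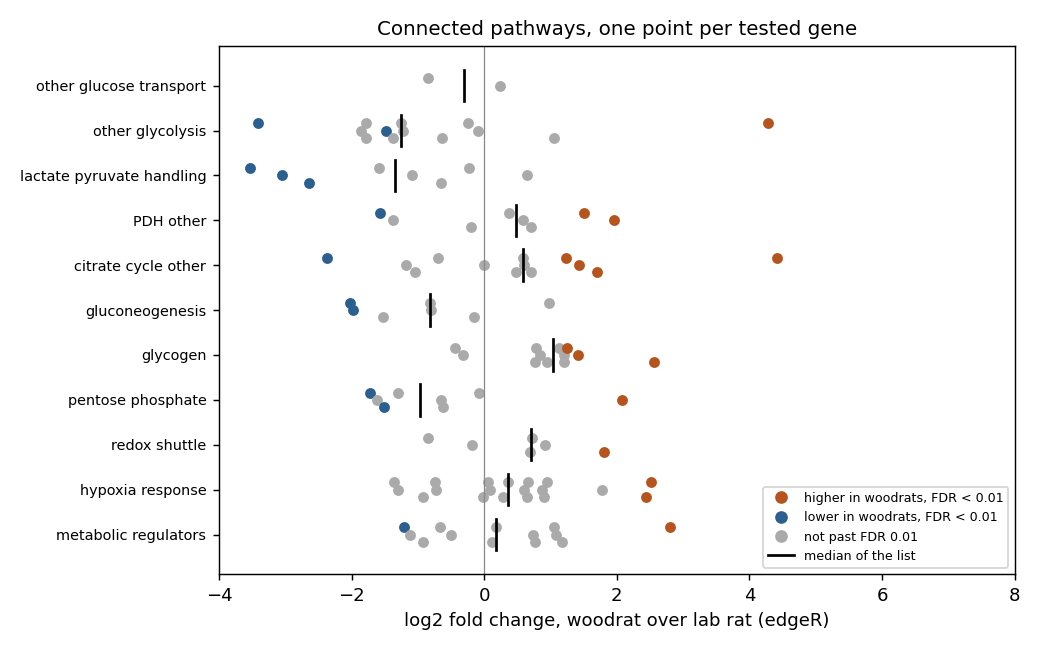
log2 fold change (x axis, woodrat over lab rat, from edgeR) of each tested gene of the 11 lists of connected pathways and regulators (y axis), with genes called higher in woodrats in orange, genes called lower in blue, uncalled genes in grey and the median of each list as a black line. The glycogen list has 3 genes called higher and no gene called lower, and lactate and pyruvate handling has 3 called lower and no gene called higher. Over all tested genes 10.3% were called higher and 9.71% lower.

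On the glycolytic side, the remaining glycolysis genes had 1 of 13 called higher and 2 called lower, against 10.3% and 9.71% of all tested genes. Enolase 2 (Eno2), the neuronal type, had 91.8, 52.0 and 76.9 CPM in woodrats against 180, 202 and 236 CPM in lab rats (log2 fold change -1.49, FDR = 0.00460). Gapdhs, the sperm-type copy of Gapdh, was lower as well (log2 fold change -3.41, FDR = 0.000323), and its reads can be shared with Gapdh. Gckr, which encodes the glucokinase regulator, was at 1.95 to 2.84 CPM in woodrats and at no more than 0.193 CPM in lab rats. It passed the filter only through the woodrats, so that its FDR of 0.00253 does not support a difference by itself. In lactate and pyruvate handling, 3 of 8 genes were lower in woodrats, against 9.71% of all tested genes. The D-lactate dehydrogenase Ldhd had 11.5, 12.9 and 11.3 CPM in woodrats against 118, 105 and 190 CPM in lab rats (log2 fold change -3.53, FDR = 0.000293). The others were Ldhal6b, a copy of Ldha (log2 fold change -3.05), and the monocarboxylate carrier Slc16a7, which stayed below 2 CPM in every animal and passed the filter only through the lab rats. Basigin (Bsg), the partner protein of monocarboxylate carriers and the gene of the list with the most reads, was not called (log2 fold change -0.65, FDR = 0.0661). None of the 2 tested genes of other glucose transport was called, and Slc2a8 overlapped between the species (FDR = 0.606).

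Of 12 glycogen genes, 3 were higher in woodrats and none was lower, against 10.3% and 9.71% of all tested genes. Among them were glycogen synthase (Gys1, log2 fold change 1.25, FDR = 0.00618) and brain-type glycogen phosphorylase (Pygb, log2 fold change 1.42, FDR = 0.00857). Ugp2, which makes the glucose donor for glycogen and had the most reads of the list, was at 239, 209.7 and 120.5 CPM in woodrats against 75.6, 84.2 and 88.0 CPM in lab rats (log2 fold change 1.20, FDR = 0.0137). In the pentose phosphate pathway, 2 of 8 genes were lower, Rpia (log2 fold change -1.73, FDR = 0.00203) and transaldolase (Taldo1, log2 fold change -1.51, FDR = 0.00732), and 1 was higher, H6pd of the endoplasmic reticulum (log2 fold change 2.08, FDR = 0.00604). Transketolase (Tkt), with the most reads, lay lower in each woodrat without being called (FDR = 0.146). Of 7 tested gluconeogenesis and transaminase genes, G6pc3 and Gpt were lower (log2 fold change -2.03 and -1.98), and Got2 was not called (log2 fold change -0.80, FDR = 0.0263).

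On the mitochondrial side, 4 of 13 further genes of the cycle and its entries were higher in woodrats and 1 was lower. The shares over all tested genes were 10.3% and 9.71%. The higher ones included the mitochondrial malic enzymes Me2 and Me3 (log2 fold change 1.70 and 4.41) and glutamate dehydrogenase (Glud1, log2 fold change 1.24, FDR = 0.00758). Me3 was below 1 CPM in every lab rat and passed the filter only through the woodrats. The cytosolic malic enzyme Me1, with the most reads of the list, ran the other way without being called (log2 fold change -1.05, FDR = 0.0663). The lower one was Sdhaf1, an assembly factor of succinate dehydrogenase (log2 fold change -2.37, FDR = 0.00374). Around pyruvate dehydrogenase, 2 of 8 genes were higher, the kinase Pdk3 (log2 fold change 1.51, FDR = 0.00503) and Pdpr, the regulatory subunit of the phosphatase (log2 fold change 1.95, FDR = 0.00302). Pdhx, which binds the E3 subunit to the core, was lower, with 12.1, 10.1 and 12.8 CPM in woodrats against 34.7, 33.2 and 36.6 CPM in lab rats (log2 fold change -1.58, FDR = 0.00231). Lias, which makes the lipoyl group of the complex, had the most reads and was not called (FDR = 0.261). Among 6 redox shuttle genes, Slc25a12, the aspartate-glutamate carrier of the malate-aspartate shuttle, was higher (log2 fold change 1.81, FDR = 0.00114), and the oxoglutarate carrier Slc25a11 overlapped (FDR = 0.522).

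Of the regulators, 2 of 19 genes of the hypoxia response were higher in woodrats and none was lower. Over all tested genes 10.3% were called higher and 9.71% lower, so the share was near the background. Epas1, which encodes the transcription factor HIF-2 alpha, had 99.0, 100 and 128 CPM in woodrats against 23.8, 25.1 and 8.28 CPM in lab rats (log2 fold change 2.51, FDR = 0.00258). Egln3, an oxygen-sensing prolyl hydroxylase, had 74.4, 114 and 66.9 CPM in woodrats against 11.8, 23.2 and 12.3 CPM in lab rats (log2 fold change 2.43, FDR = 0.00181). Higd1a, with the most reads of this list, was not called (log2 fold change -0.74, FDR = 0.149). Of 13 metabolic regulators, Prkaa2, a catalytic subunit of AMP-activated kinase, was higher (log2 fold change 2.81, FDR = 0.00433). Prkaa2 fell below 1 CPM in lab rat 3 and passed the filter through the woodrats. Mlx, the partner of the glucose-sensing Mondo factors, was lower (log2 fold change -1.20, FDR = 0.00878). Txnip, which restrains glucose uptake, had the most reads and was not called (log2 fold change 1.17, FDR = 0.0189).

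The calls were then checked by leaving out each animal in turn, which leaves 2 animals against 3. The 12 called genes kept their direction in all 6 fits. Slc2a9 and Pdk1 stayed below an FDR of 0.01 in all 6, with values up to 0.00718 and 0.00833, although Slc2a9 passed the filter only through the lab rats. Ldha was lost without woodrat 2 or lab rat 2 (FDR from 0.0112 to 0.0155). Slc2a10 and Idh1 stayed called in 3 fits and Slc2a12 and Idh2 in 2, each among them without woodrat 1 and without woodrat 3. Slc2a10 and Slc2a12 passed the filter through the woodrats, and Hk2 through the lab rats. Pdk2 and Hk2 stayed called only without woodrat 3, and Hk1 and Mdh1 only without lab rat 3. Leaving out 1 animal moved the fold of 3 called genes of low count by over 1.5 times. The log2 fold change of Slc2a9 was -5.87 without woodrat 2 and -4.37 without woodrat 3, that of Slc2a10 was 3.47 without lab rat 2, and that of Hk2 was -3.20 without woodrat 3. Dlst was called in none of the 6, with FDR values from 0.0113 to 0.0300. The highest FDR of any of the 12 genes in these fits was 0.0416, for Hk1, whose log2 fold change stayed between -1.07 and -1.02.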

How the data were processed

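Strand-specific libraries from polyA RNA of 6 animals were sequenced. The authors trimmed the read pairs with Trimmomatic (named in the submitters' processing notes too), merged overlapping pairs with FLASH, aligned them with cross_match to GENCODE M7 mouse coding transcripts and deposited raw counts of uniquely assigned reads per mouse gene. Tool versions are not given in the sources used here. The processing notes name the mouse build mm9. Eno1, on the study's list of excluded paralogs, still holds reads. The counts list no gene without woodrat reads and 809 without lab rat reads, so genes read in lab rats only are left out of every background share.

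Groups and animal numbers came from the sample titles. The 12603 of 15481 genes that reached 1 CPM in 3 or more animals were tested with edgeR 4.0.16 in R 4.3.3 (TMM, legacy quasi-likelihood F-test, species as only term, prior count 0.125, Benjamini-Hochberg over all tested genes, FDR below 0.01 as in the study). A standard error is the log2 fold change divided by the square root of F. Ratios used reads plus 0.5. The smallest exact p with 3 against 3 animals is 0.1. The common biological coefficient of variation was 33.98%. Counts of animals of one species differed by more than sampling noise (chi-square per degree of freedom from 10.1 to 121). The fit was tested on simulated counts. Figures were drawn with matplotlib 3.10.9.

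The members and gene lists were chosen with earlier results of these data known. The text accounts for every member and gives values in every animal for the called genes, and for uncalled genes where the species did not overlap. From the other lists it names the called genes and the gene with the most reads, except for some genes that are not reported here. Alternatives were a filter at 5 CPM, no filter, genes with reads in every animal, DESeq2 size factors, total counts, the edgeR 4 method, robust estimation, a replicate block, DESeq2 1.42.0, an FDR of 0.05, a ratio pseudocount of 2 and each animal left out. Summing gene copies was added after seeing the data. No reference sequences or gene lengths were used here.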

Additional observations from a re-analysis of the deposited data

How the results depend on the processing

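Under a filter at 5 CPM, no filter, genes with reads in every animal, DESeq2 size factors, total counts, the edgeR 4 method, robust estimation, DESeq2 and summed copies, the numbers of the 49 genes called stayed within 1.5 times of 6 higher and 6 lower. The genes called were not always the same. Total counts kept 7 of the 12 called genes, and the 5 CPM filter, which tested 43 of the 49, kept 8. With an FDR of 0.05 the numbers called were 11 and 10, against 21% and 18.9% of all tested genes. With the replicate number as a block they were 0 and 1 (Slc2a9, FDR = 0.00844, which passed the filter only through the lab rats). For the neighbouring and regulatory lists (15 higher and 12 lower), the block gave 5 and 4, an FDR of 0.05 gave 24 and 27, total counts gave 8 higher and DESeq2 gave 21 lower. The deviations of same-numbered animals from the mean of each species correlated at -0.289 to -0.0881 over 3 pairs, and the numbers are therefore not used as a pairing. With each animal left out in turn, 0 to 7 of the 49 genes were called higher and 2 to 5 lower, and 4 to 15 and 3 to 15 genes of the other lists. The direction of all 12 called genes was the same in every alternative in which they were tested. It changed for uncalled genes near 0. The Gpi1 log2 fold change was 0.0093 with the 5 CPM filter and 0.0033 without a filter, and the Eno3 log2 fold change was 0.0031 with the 5 CPM filter. In the fits without 1 animal, Gpi1 ranged from -0.15 to 0.14, Eno3 from -1.10 to 0.37, Pdha1 from -0.019 to 0.34 and Pdk4 from -1.13 to 0.38. The differences of the 12 ratios moved by less than the spread between animals with a pseudocount of 2 and with summed copies (isoform ratio Ldha/Ldhb -3.49 and -3.51, isoform ratio Aldoa/Aldoc -1.71 and -1.46). Pairing same-numbered animals leaves the mean difference of a ratio unchanged by arithmetic, so the block is no check of these differences. Without 1 animal the Ldha to Ldhb difference stayed between -4.003 and -3.08. The causes of these changes were not tested. At this depth Slc2a9, Slc2a10, Slc2a12 and Hk2 rest on few reads.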
